A study of Mus musculus with 6 samples.

Results

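Toll-like receptors are membrane proteins that bind microbial or tissue-derived molecules, and the genes described here are 6 of these receptors with a co-receptor, their adaptors and an inhibitor. The 10 genes, taken by symbol from tables of 18002 genes, were Tlr1, Tlr2, Tlr3, Tlr4, Tlr5, Tlr6, Cd14, Myd88, Ticam1 and Irak3. They were measured by RNA-seq in primary cells from mouse jawbone periosteum, a sheath around bone in which skeletal progenitors reside. After 48 h in culture, 3 libraries came from spheroids, the aggregates that the cells form in 3D, and 3 from cells spread as a flat 2D monolayer. Both formats used primary cells of the same tissue, and the labels give no strain, age, sex or added agent, and no statement on pooling of animals. Nor do they tie the libraries of a format to separate cultures or animals, so every p-value here reflects library-to-library spread that may be technical.

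TLR2 at the cell surface pairs with TLR1 or TLR6 and binds bacterial lipopeptides, TLR4 with its partner MD-2 binds lipopolysaccharide, and TLR5 binds flagellin, while TLR3 in endosomes binds long viral-type RNA duplexes. CD14 carries lipopolysaccharide and lipopeptides to these receptors. These receptors other than TLR3 signal through the adaptor MyD88 to IRAK and TRAF6 and on to NF-kB, whereas TLR3, and TLR4 from endosomes, use the adaptor TRIF (gene Ticam1) and activate IRF3, and IRAK3 (also called IRAK-M) restrains the MyD88 branch. Such receptors are best known from macrophages, but bone-lining and other stromal cells also carry some of them.

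Library totals ranged from 21701046 to 21889110 reads, so differences in depth were small. Periosteal and mesenchymal marker genes were abundant in both formats, as in Prrx1, a transcription factor of limb and face mesenchyme, at 162 ± 5.08 FPKM in spheroids and 143 ± 4.96 FPKM in monolayers (SD, n = 3). Of 10 such markers, 6 were higher and 4 lower in spheroids, beside 37.1% of all tested genes in each direction. Col1a1, a collagen gene, was the most strongly lowered of them, with a log2 fold change of -1.14 ± 0.03 (SE, edgeR). FPKM, the authors' fragment number scaled to gene length and library size, is the scale used below to set genes beside each other. Markers of other cell types were also present and differed between formats. The summed CPM (counts scaled to library size alone) of 16 macrophage and leukocyte markers was 162 to 168 in spheroids and 35.8 to 40.2 in monolayers. For 9 endothelial markers the sum was 340 to 358 CPM in spheroids and 56.1 to 59.8 CPM in monolayers, and for 8 skeletal muscle markers it was 1137 to 1227 CPM in spheroids and 55.6 to 58.4 CPM in monolayers. In bulk RNA, fewer cells of a type and less RNA per cell cannot be told apart, which applies to every difference below.

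**Figure D1:**
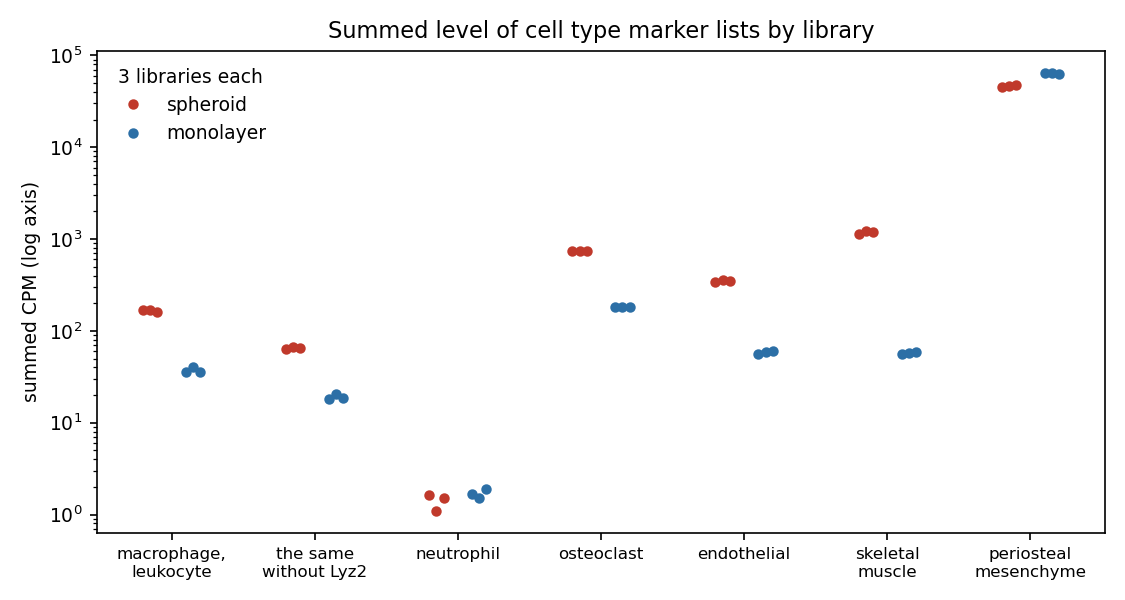
Summed CPM (log axis) of marker lists for each of the 3 spheroid and 3 monolayer libraries, 1 point per library. Macrophage, osteoclast, endothelial and muscle sums lay higher in every spheroid library than in every monolayer library, neutrophil sums stayed below 2 CPM, and the mesenchymal sum was 44880 to 47255 CPM in spheroids against 63436 to 64820 CPM in monolayers.

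The comparison asked how culture as a spheroid rather than a monolayer went with the level of each receptor and adaptor gene. Tlr2, Cd14 and Tlr4 were higher in spheroids by 2.69-fold, 2.59-fold and 2.05-fold, while Tlr5 and Tlr1 were lower, by 6.31-fold and 2.98-fold. The adaptor genes Myd88 and Ticam1 were higher by 1.23-fold and 1.13-fold, and Tlr3 was lower by 1.19-fold. Tlr6 and Irak3 did not pass the test, which does not show that they were equal between formats. All 10 genes passed the filter on low counts, Tlr1 only through its monolayer counts. In edgeR's quasi-likelihood test, 8 of the 10 were called at an adjusted p below 0.05, beside 74.2% of all 13708 genes tested, so their share is near the background. Of the 10, 5 were higher, beside 37.1% of all tested genes, and 3 were lower, beside 37.1% as well. Changes of at least 2-fold were called for 5 of the 10, beside 19.4% of all tested genes. CPM values of spheroids and monolayers did not overlap for 8 of the 10, beside 75.8% of all tested genes. The median log2 fold change of the 10 genes was 0.12, with the receptors spread over both directions, and that of all tested genes was 0.00 after rounding.

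**Figure D2:**
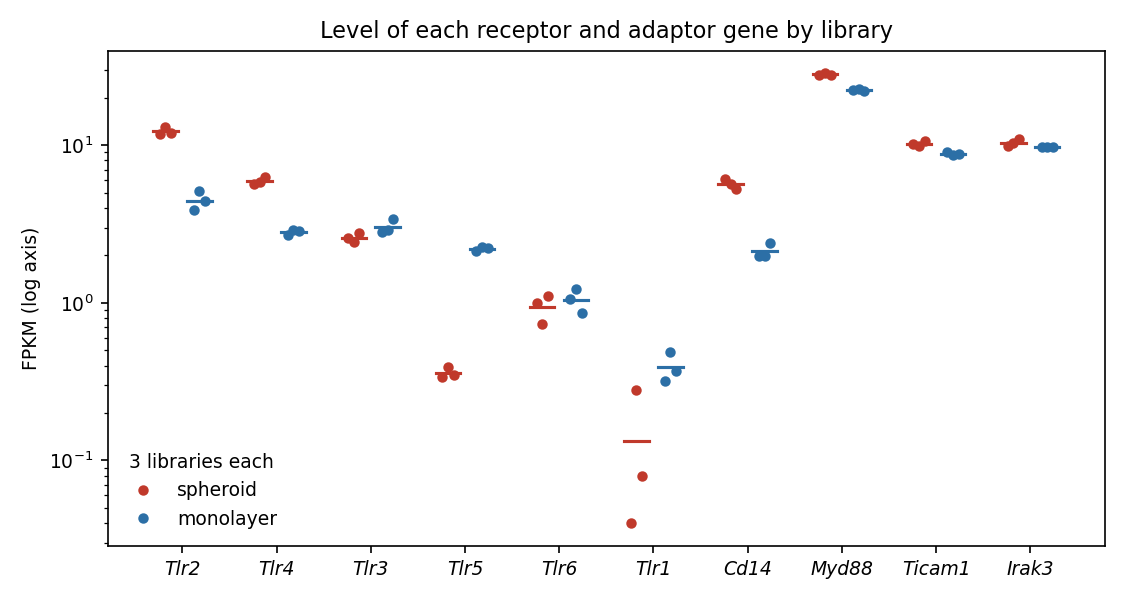
FPKM (log axis) of each gene in the 3 spheroid and 3 monolayer libraries, with points for libraries and bars for means. Tlr2, Tlr4, Cd14, Myd88 and Ticam1 lay higher in every spheroid library, Tlr5, Tlr3 and Tlr1 lay lower, and the points of Tlr6 overlapped. Those of Irak3 lay almost level, its lowest spheroid value of 9.84 being just above its highest monolayer value of 9.78.

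Tlr2 (gene ID 24088, chromosome 3, 83836272 to 83841824, GRCm38.p6) was the most abundant of the 6 receptor genes in both formats. Its level was 11.76, 12.99 and 12 FPKM in spheroids, against 3.87, 5.08 and 4.39 FPKM in monolayers. The lowest spheroid library was thus far above the highest monolayer library. The log2 fold change was 1.43 ± 0.07 (SE), with an adjusted p of 1.47e-15 in edgeR's test, and it lay between 1.29 and 1.54 under every alternative. The promoter of Tlr2 is shown because this gene had the largest rise of the 10 and its window matched the NF-kB consensus. The window covers 250 bases before to 50 after the RefSeq start (GRCm38.p6, chr3:83841559-83841858, minus strand), and capitals mark matches to the NF-kB consensus.
Tlr2: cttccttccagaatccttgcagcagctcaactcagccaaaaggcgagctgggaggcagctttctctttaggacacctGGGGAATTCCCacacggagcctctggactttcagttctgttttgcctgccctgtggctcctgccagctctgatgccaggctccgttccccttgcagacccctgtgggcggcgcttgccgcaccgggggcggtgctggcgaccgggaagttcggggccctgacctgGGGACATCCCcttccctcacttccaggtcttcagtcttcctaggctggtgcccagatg
The stretch in capitals that lies upstream holds overlapping matches starting at -173 and -172, counted from the start site, and the other match starts at -8. A match to this consensus was found in 8.46% of 32851 RefSeq promoter windows of the same length, searched on both strands. The window held no match to the ISRE (GAAA, any 2 bases, GAAA), GAS (TTCNNNGAA), AP-1 (TGANTCA) or TEAD (GGAATG) letters or to the CArG consensus. Among promoters of the other genes, Tlr3 had a match to the NF-kB consensus at -211. These matches describe letters only and give no evidence of binding.

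Tlr5 (gene ID 53791, chromosome 1, 182954752 to 182976044), the flagellin receptor gene, showed the largest difference of the 10 genes, in the direction opposite to that of Tlr2. It had 23, 27 and 25 reads in spheroids, against 149, 158 and 160 reads in monolayers. In FPKM these were 0.34, 0.39 and 0.35 in spheroids and 2.13, 2.25 and 2.21 in monolayers. The libraries of each format agreed closely despite the low read numbers. The log2 fold change was -2.66 ± 0.15 (SE; adjusted p = 8.42e-17, edgeR). Called falls of at least 2-fold made up 6.67% of all tested genes. In limma on log2(FPKM + 1), a scale that shrinks differences at low levels, the estimate was -1.23. The promoter of Tlr5 (chr1:182954538-182954837, plus strand) is shown beside that of Tlr2 because the gene moved the other way.
Tlr5: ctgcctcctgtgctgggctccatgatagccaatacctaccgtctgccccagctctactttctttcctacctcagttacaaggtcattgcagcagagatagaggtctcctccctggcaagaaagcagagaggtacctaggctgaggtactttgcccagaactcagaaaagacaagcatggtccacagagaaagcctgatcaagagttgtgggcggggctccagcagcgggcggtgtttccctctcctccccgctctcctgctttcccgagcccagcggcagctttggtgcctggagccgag
None of the 6 motifs searched was found in this window, and it is therefore printed without capitals.

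Tlr4 (gene ID 21898, chromosome 4, 66827551 to 66846581) had 5.65, 5.86 and 6.28 FPKM in spheroids, against 2.71, 2.88 and 2.87 FPKM in monolayers. Like Tlr2 it was higher in spheroids, with libraries tightly grouped within each format and no overlap. The difference was 1.04 ± 0.05 (log2, SE; edgeR's adjusted p = 5.76e-18). Reads behind it numbered 962 to 1073 per spheroid library and 464 to 494 per monolayer library, the best-covered of the receptor genes.

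Cd14 (gene ID 12475, chromosome 18, 36725064 to 36726815), the co-receptor that hands lipopolysaccharide to TLR4, had 6.06, 5.65 and 5.24 FPKM in spheroids, against 1.99, 1.98 and 2.41 FPKM in monolayers. Again the spheroid libraries lay apart from the monolayer libraries. In edgeR's test the log2 fold change was 1.37 ± 0.11 (SE; adjusted p = 2.05e-12). Cd14, Tlr2 and Tlr4 are also expressed by macrophages, and macrophage markers moved the same way. Of 13 tested macrophage and leukocyte markers, 12 were higher in spheroids, beside 37.1% of all tested genes. Of these 12, 3 had passed the count filter through spheroids alone. None was lower, and Csf1r, the receptor for the macrophage growth factor CSF1, was not called (log2 fold change 0.24 ± 0.11, adjusted p = 0.052, edgeR). Ptprc, which encodes the leukocyte surface protein CD45, had 0.60 FPKM in spheroids and 0.277 FPKM in monolayers. Adgre1, which encodes the macrophage marker F4/80, had 0.56 FPKM in spheroids and 0.147 FPKM in monolayers. Fcgr1, Aif1 and Cx3cr1 were too low to test, with at most 5 reads, 2 reads and 4.27 reads in a spheroid library. Lyz2, a lysozyme gene and the most abundant of these markers, had 101 ± 3.38 CPM in spheroids and 18.4 ± 1.32 CPM in monolayers (SD, n = 3), above Tlr2, with 34.3 ± 2.05 CPM in spheroids and 12.7 ± 1.74 CPM in monolayers. The part of macrophage RNA in the differences of Cd14, Tlr2 and Tlr4 was not tested.

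Tlr3 (gene ID 142980, chromosome 8, 45395665 to 45411075), the endosomal RNA receptor gene, had 2.58, 2.42 and 2.75 FPKM in spheroids, against 2.82, 2.91 and 3.38 FPKM in monolayers. The groups did not overlap, but the highest spheroid library came close to the lowest monolayer library. EdgeR's log2 fold change was -0.25 ± 0.08 (SE; adjusted p = 0.00596). Without monolayer replicate 3, the highest library, it was -0.18 and the adjusted p was 0.0657, so the call depended on that library. An annotated gene on the opposite strand, Gm45542, shares 5.30% of the 50-base windows of Tlr3 transcripts and is not analysed here.

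Tlr1 (gene ID 21897, chromosome 5, 64924680 to 64933600) and Tlr6 (gene ID 21899, chromosome 5, 64953092 to 64970942) lie close together, and their products pair with TLR2. Tlr1 had 2.36, 17.32 and 4.83 estimated reads in spheroids, against 19.63, 28.41 and 23.43 in monolayers. Spheroid replicate 2 stood well above the other spheroid libraries and just below the lowest monolayer library. The log2 fold change of Tlr1 was -1.57 ± 0.43 (SE; adjusted p = 0.00272, edgeR), and without spheroid replicate 2 it was -2.74. Tlr6 had 59.64, 40.95 and 69.17 estimated reads in spheroids, against 67.37, 73.59 and 61.23 in monolayers. The formats overlapped, spheroid replicate 2 being lowest here, and the log2 fold change of -0.27 ± 0.17 (SE) was not called (adjusted p = 0.152, edgeR). Without spheroid replicate 3 it was -0.44, with an adjusted p of 0.0429 in edgeR's test, and without spheroid replicate 2 it was -0.09.

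The values of Tlr1 and Tlr6 are uncertain one by one, because reads from a shared stretch can be assigned to either gene. In the GENCODE transcripts, 454 of the 3332 windows of 50 bases in Tlr1 occur in Tlr6 too, which is 13.6% of the windows of Tlr1 and 12.3% of those of Tlr6. The longest identical coding stretch is 229 bases long and is printed once, since both copies have the same letters. It lies at chr5:64925537-64925765 in Tlr1 and at chr5:64953828-64954056 in Tlr6 (GRCm38, minus strand for both).
Tlr1 and Tlr6: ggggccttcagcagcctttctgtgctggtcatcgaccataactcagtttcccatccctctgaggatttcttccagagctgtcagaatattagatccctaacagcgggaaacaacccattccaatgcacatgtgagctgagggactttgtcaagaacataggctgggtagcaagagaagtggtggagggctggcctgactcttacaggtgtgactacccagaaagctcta
The estimated reads of both genes have decimals, while those of the other 8 genes are whole. Summing the counts of the pair, a step chosen after seeing the data, gave 62.0, 58.27 and 74.0 reads in spheroids, against 87.0, 102.0 and 84.66 in monolayers. The sums did not overlap, and spheroid replicate 2 no longer stood high. The log2 fold change of the sum was -0.52 ± 0.14 (SE; adjusted p = 0.00165, edgeR), so the sum of the pair was lower in spheroids.

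**Figure D3:**
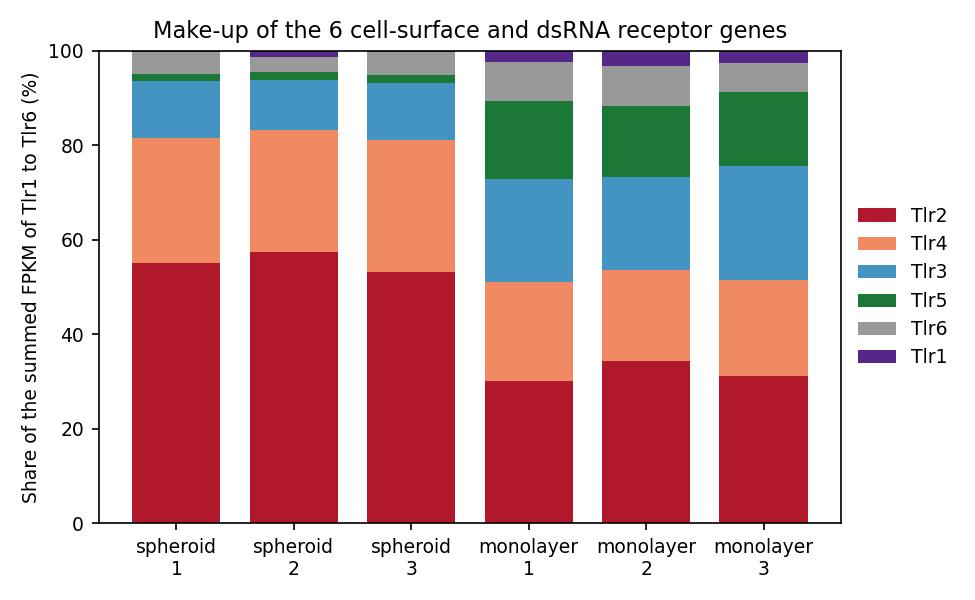
Share (%) of the summed FPKM of Tlr1 to Tlr6 taken by each receptor gene, 1 bar per library. Tlr2 took 53.2% to 57.3% in spheroids and 30.0% to 34.2% in monolayers, and Tlr5 took 1.55% to 1.72% in spheroids and 15.2% to 16.5% in monolayers.

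The mix of receptor mRNA differed between formats. The 6 receptor genes summed to 22.2 ± 0.721 FPKM in spheroids and 13.9 ± 0.978 FPKM in monolayers (SD, n = 3). Tlr2 made up 55.2% of that sum in spheroids, against 31.8% in monolayers, and Tlr4 made up 26.7% in spheroids, against 20.3% in monolayers. Tlr3 took 11.6% in spheroids and 21.8% in monolayers, and Tlr5 took 1.62% in spheroids and 15.8% in monolayers. In every library of either format Tlr2 had the largest share of the 6. The FPKM ratio of Tlr2 to Tlr5, picked after the values were seen and so given with no test, was 34.6, 33.3 and 34.3 in spheroids, against 1.82, 2.26 and 1.99 in monolayers. For Tlr4 to Tlr5 it averaged 16.5 ± 1.46 in spheroids and 1.28 ± 0.0135 in monolayers (SD, n = 3).

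Myd88 (gene ID 17874, chromosome 9, 119335934 to 119340018), the adaptor gene shared by most of these receptors, was the most abundant of the 10 genes in both formats. It had 27.9, 28.56 and 27.78 FPKM in spheroids, against 22.28, 22.6 and 21.9 FPKM in monolayers. The spread within a format was small, and the formats were well separated. The log2 fold change was 0.30 ± 0.04 (SE; adjusted p = 1.45e-07, edgeR), and it lay between 0.28 and 0.33 under every alternative. Its transcripts overlap those of Acaa1a, a peroxisomal thiolase gene on the opposite strand, in 7.42% of the 50-base windows of Myd88. Acaa1a was itself higher by 0.29 ± 0.04 (log2, SE; adjusted p = 1.68e-07, edgeR), and since any use of strand is not given in the sources used here, reads from the overlap cannot be told apart. The promoter of Myd88 (chr9:119339969-119340268, minus strand) is shown because it held interferon-type motifs and no match to the NF-kB consensus. Capitals mark a GAS match that starts at -46 and an overlapping ISRE match that starts at -40.
Myd88: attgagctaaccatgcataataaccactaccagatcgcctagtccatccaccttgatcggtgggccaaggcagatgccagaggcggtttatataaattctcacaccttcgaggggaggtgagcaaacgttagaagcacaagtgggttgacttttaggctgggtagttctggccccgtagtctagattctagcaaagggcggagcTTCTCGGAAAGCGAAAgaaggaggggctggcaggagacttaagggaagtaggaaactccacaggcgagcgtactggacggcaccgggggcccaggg
ISRE letters were found in 3.44% and GAS letters in 8.30% of all 32851 windows, AP-1 letters in 7.81%, TEAD letters in 14.7% and the CArG consensus in 1.63%. Among the remaining windows, Tlr1 and Tlr6 had GAS letters in 1 of their 2 windows each, Tlr6 had overlapping ISRE letters in its other window, and Irak3 had TEAD letters in 1 of 2. Ticam1 had none of the 6 motifs.

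Ticam1 (gene ID 106759, chromosome 17, 56269462 to 56276767), which encodes TRIF, had 10.17, 9.92 and 10.59 FPKM in spheroids, against 9.07, 8.62 and 8.75 FPKM in monolayers. The formats did not overlap, but the gap was small. In edgeR's test the difference was 0.18 ± 0.05 (log2, SE; adjusted p = 0.00372). The FPKM ratio of Myd88 to Ticam1 was 2.75 ± 0.128 in spheroids and 2.53 ± 0.0853 in monolayers (SD, n = 3), and the lowest spheroid library nearly equalled the highest monolayer library. Irak3 (gene ID 73914, chromosome 10, 120141648 to 120202130), the gene of the inhibitor IRAK-M, had 9.84, 10.25 and 10.92 FPKM in spheroids, against 9.78, 9.7 and 9.68 FPKM in monolayers. The lowest spheroid library lay close to the monolayer values, and in CPM the formats overlapped. Its log2 fold change of 0.05 ± 0.05 (SE) was not called (adjusted p = 0.376, edgeR), and it was not called under any of 15 alternatives, with log2 fold changes between 0.01 and 0.09. Tmbim4, on the opposite strand, shares 2.56% of the 50-base windows of Irak3.

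**Figure D4:**
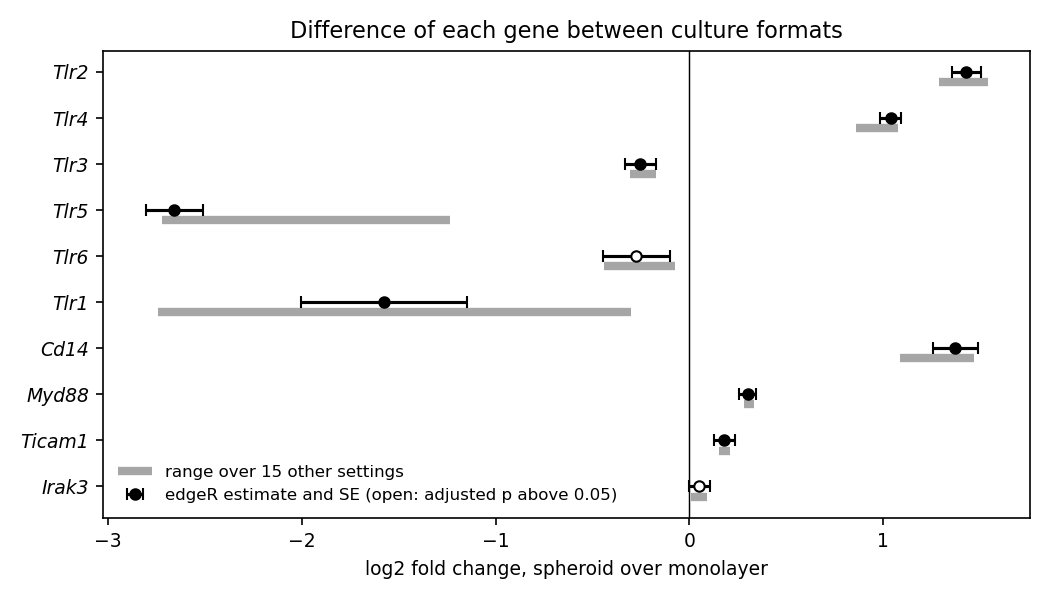
Log2 fold change, spheroid over monolayer, of each gene. Points are edgeR estimates with SE, open where the adjusted p was above 0.05, and grey bars span 15 other settings. The grey bars of Tlr2, Tlr4, Cd14, Myd88, Ticam1 and Irak3 lie wholly right of 0. Those of Tlr5, Tlr1, Tlr3 and Tlr6 lie wholly left of it. A bar clear of 0 does not mark a call, since Irak3 and Tlr6 were not called.

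Ranked by FPKM, the order in spheroids was Myd88 at 28.1, Tlr2 at 12.2, Irak3 at 10.3, Ticam1 at 10.2, Tlr4 at 5.93, Cd14 at 5.65, Tlr3 at 2.58, Tlr6 at 0.943, Tlr5 at 0.360 and Tlr1 at 0.133. Irak3 and Ticam1, and likewise Tlr4 and Cd14, had overlapping libraries and cannot be ordered. In monolayers the order was Myd88 at 22.3, Irak3 at 9.72, Ticam1 at 8.81, Tlr2 at 4.45, Tlr3 at 3.04, Tlr4 at 2.82, Tlr5 at 2.20, Cd14 at 2.13, Tlr6 at 1.05 and Tlr1 at 0.393. There Tlr3 and Tlr4, and Tlr5 and Cd14, overlapped. Tlr2 stood above Irak3 and Ticam1 in spheroids and below them in monolayers, and Tlr5 was level with Cd14 in monolayers but far below it in spheroids.

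The other genes of the pathway were taken as 8 lists with 98 genes, of which 79 could be tested. In edgeR's test 47 of them were higher and 16 lower in spheroids, a share of 79.7% called beside the 74.2% of all tested genes. Their median log2 fold change was 0.23, and the middle range of all tested genes, from the first to the last quartile, ran from -0.31 to 0.40. Of the 79, 8 reached the count filter through spheroids alone and were tested only because they were high enough there. These were Tlr8, Tlr13, Cd180, Pik3ap1, Sigirr, S100a8, Saa3 and Cxcl10. Without them 40 of 71 were higher and 16 lower, with a median log2 fold change of 0.18.

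**Figure D5:**
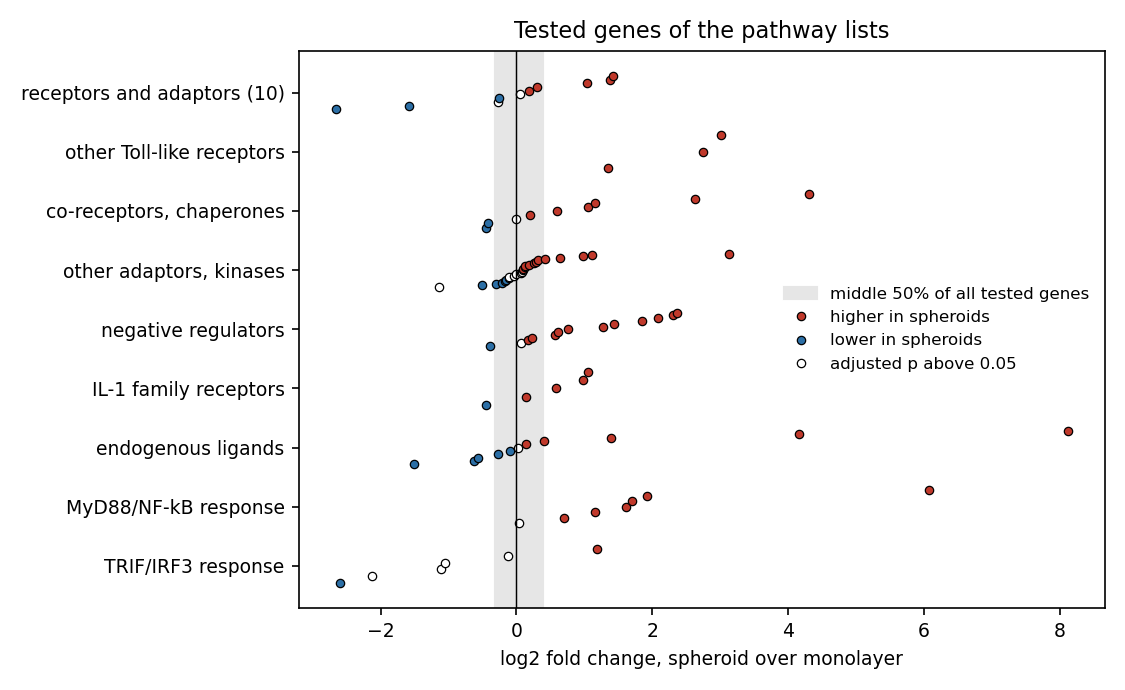
Log2 fold change, spheroid over monolayer, of every tested gene in the receptor and adaptor list and in 8 further lists, with red for higher, blue for lower and white for not called. The grey band, from -0.31 to 0.40, holds the middle of all tested genes. The 3 tested genes among the other receptors lay to its right, 2 of them tested through spheroids alone, and most negative regulators did too.

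Among the other Toll-like receptor genes, 3 could be tested and were higher in spheroids, beside 37.1% of all tested genes. Of these, Tlr8 and Tlr13 were tested only because they were high enough in spheroids, which leaves 1, Tlr7, tested through both formats. Tlr13, a receptor of bacterial ribosomal RNA in mice, had 42, 33 and 35 reads in spheroids and 4, 5 and 4 reads in monolayers. Tlr8 had 24, 20 and 20 reads in spheroids and 2, 4 and 3 reads in monolayers. Tlr7, a receptor for RNA in endosomes, had 107.52, 119.26 and 103.56 reads in spheroids and 35.81, 39.15 and 52.81 reads in monolayers. None of the 3 overlapped between formats in CPM, and neither did 75.8% of all tested genes. The log2 fold changes of the 3 were 3.02 ± 0.33, 2.75 ± 0.41 and 1.34 ± 0.15 (SE, edgeR), for Tlr13, Tlr8 and Tlr7 in that order. All were low, at most 0.947 FPKM on average in spheroids. Tlr9 and Tlr12 had at most 3 reads in any library and were not tested, and Tlr11 is not analysed here. These genes are expressed chiefly by leukocytes, and the leukocyte marker sum without the abundant Lyz2 was 65.0 ± 1.10 CPM in spheroids and 19.0 ± 1.26 CPM in monolayers (SD, n = 3). Its part in their difference was not tested.

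Of 9 tested co-receptors and chaperones, 6 were higher and 2 lower in spheroids, beside 37.1% of all tested genes in each direction. Without Cd180, tested through spheroids alone, 5 of 8 were higher and 2 lower, with a median log2 fold change of 0.40. Cd36, a scavenger receptor that assists TLR2 with TLR6, had 7.73 ± 0.407 FPKM in spheroids and 0.367 ± 0.0709 FPKM in monolayers (SD, n = 3), a log2 fold change of 4.31 ± 0.12 (SE). Lbp, the lipopolysaccharide-binding protein that loads CD14, had 110 ± 2.39 FPKM in spheroids and 17.4 ± 0.195 FPKM in monolayers, a log2 fold change of 2.63 ± 0.03 (SE). Cd180, a TLR4-related surface protein of B cells and myeloid cells, rose too, by 1.16 ± 0.35 (log2, SE), on 27, 24 and 11 reads in spheroids and 9, 10 and 8 in monolayers. Ly96, which encodes the TLR4 partner MD-2 and is named for that role after its value was seen, had 16.3 ± 0.52 FPKM in spheroids and 7.69 ± 0.503 FPKM in monolayers, 1.05 ± 0.10 apart on the log2 scale (SE; adjusted p = 1.26e-10, edgeR). The folding factors Hsp90b1 (gp96) and Cnpy4, which help receptors reach the surface, fell by 0.41 and 0.44 on the log2 scale.

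The kinases and further adaptors went both ways, with 11 of 25 higher, 6 lower, 8 not called and a median log2 fold change of 0.09. Leaving out Pik3ap1, tested through spheroids alone, 10 of 24 were higher and 6 lower, beside 37.1% of all tested genes in each direction. Pik3ap1, the adaptor BCAP of B cells and macrophages, rose by 3.13 ± 0.30 (log2, SE) on 42, 66 and 55 reads in spheroids and 7, 7 and 4 reads in monolayers. Map3k8, the kinase TPL2, rose by 1.12 ± 0.14 and Ikbke, the kinase IKKε, by 0.99 ± 0.06 (log2, SE). Ube2n, which encodes the ubiquitin enzyme UBC13 that works with TRAF6, fell by 0.51 ± 0.03 (log2, SE), and Irak2 and Tab2 fell by 0.30 and 0.21 on the same scale. Along the core of the MyD88 branch, named for its role with values already seen, Traf6 and Irak1 rose by 0.64 ± 0.06 and 0.31 ± 0.03 (log2, SE). Irak4 and Tirap were not called, at -0.04 ± 0.07 and 0.09 ± 0.06 (log2, SE; adjusted p = 0.641 and 0.185, edgeR). Irf3, the factor downstream of TRIF, was not called either, at 0.00 ± 0.05 after rounding (log2, SE; adjusted p = 0.974, edgeR).

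Negative regulators were higher in spheroids for 11 of 13 tested genes, beside 37.1% of all tested genes. Their median log2 fold change was 0.76. Sigirr was tested only because it was high enough in spheroids, and 10 of 12 were higher without it, with a median of 0.68. Sigirr, an inhibitory receptor of the IL-1 family, rose by 2.37 ± 0.34 (log2, SE), on 32, 30 and 34 reads in spheroids and 11, 4 and 3 reads in monolayers. Atf3, a transcription factor that represses receptor-induced cytokine genes, had 8.83 ± 0.668 FPKM in spheroids and 1.74 ± 0.358 FPKM in monolayers, and Zc3h12a, the RNase Regnase-1, had 19.6 ± 1.07 FPKM in spheroids and 4.50 ± 0.294 FPKM in monolayers (SD, n = 3). Their log2 fold changes were 2.31 ± 0.11 and 2.09 ± 0.06 (SE, edgeR). Cyld, a deubiquitinase, fell by 0.40 ± 0.05 (log2, SE), the only called fall in the list. Irak3, which restrains the same branch, was not called, and whether it differed from these regulators was not tested.

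Receptors of the IL-1 family, which share MyD88 with the Toll-like receptors, were higher for 4 of 5 tested genes, beside 37.1% of all tested genes. Il18rap, Il1rl1 and Il1rl2 rose by 1.05, 0.98 and 0.58 on the log2 scale and Il1r1, the IL-1 receptor, by 0.14. Il1rap, the accessory chain of the IL-1 receptor, fell by 0.45, and Il18r1 had too few reads to test. Proteins described as endogenous ligands of TLR2 or TLR4 had no common direction, with 5 of 11 higher and 5 lower. The share of all tested genes was 37.1% in each direction. Without Saa3 and S100a8, tested through spheroids alone, 3 of 9 were higher and 5 lower. Saa3, a serum amyloid gene, rose by 8.12 and S100a8, a calgranulin gene, by 4.16 ± 0.56 (log2, SE), the calgranulin on 15, 23 and 23 reads in spheroids and 1, 2 and 0 reads in monolayers. Dcn, which encodes the proteoglycan decorin, had 537 ± 6.26 FPKM in spheroids and 199 ± 2.12 FPKM in monolayers (SD, n = 3). The heat shock protein gene Hspa1b fell, with 3.10 ± 0.265 FPKM in spheroids and 8.60 ± 0.121 FPKM in monolayers, and the chaperone genes Hspa1a and Hspd1 fell by 0.63 and 0.56 on the log2 scale.

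Of 13 genes known to respond to the MyD88 and NF-kB branch, only 7 could be tested, and the rest did not pass the count filter. Among the 7, 6 were higher in spheroids and none lower, beside 37.1% of all tested genes called higher. Their median log2 fold change was 1.62. Tnf and Il1b, described at the end, were too low to test. Lcn2, a siderophore-binding protein gene, had 67.1 ± 2.80 FPKM in spheroids and 0.967 ± 0.319 FPKM in monolayers, and the cytokine gene Il6 had 23.8 ± 0.882 FPKM in spheroids and 6.10 ± 0.333 FPKM in monolayers (SD, n = 3). Nfkbiz, an NF-kB cofactor gene, had 14.6 ± 0.397 FPKM in spheroids and 4.32 ± 0.0306 FPKM in monolayers. Their log2 fold changes were 6.07 ± 0.10, 1.93 ± 0.07 and 1.70 ± 0.05 (SE, edgeR). Icam1 was not called, at 0.04 ± 0.06 (log2, SE; adjusted p = 0.487, edgeR). Of 6 tested genes of the TRIF and IRF3 branch, 1 was higher, 1 was lower and 4 were not called. Of all tested genes, 37.1% were called higher and 37.1% lower. Their median log2 fold change was -1.08. Leaving out Cxcl10, tested through spheroids alone, 1 of 5 was higher and 1 lower, with a median of -1.05. The summed CPM of the list was 26.3 to 28.9 in spheroids and 27.1 to 84.1 in monolayers, where libraries differed widely. The difference between the lists was not tested. Ccl5, a chemokine gene, rose by 1.19 ± 0.21 (log2, SE), with 57, 58 and 55 reads in spheroids and 24, 31 and 18 reads in monolayers. Isg15, a ubiquitin-like interferon-induced gene, had 45, 23 and 22 reads in spheroids, against 69.99, 208.98 and 258.0 reads in monolayers. Its log2 fold change of -2.60 ± 0.71 (SE; adjusted p = 0.0286, edgeR) rested on monolayer libraries that differed widely from each other, and its call was lost when a single library was left out in 5 of 6 cases.

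To show which genes followed a like course, the nearest pattern over the 6 libraries was sought by the root mean square distance between centred log2 CPM values, among genes above a minimum abundance set from that of the gene in question. For Tlr2 the nearest were Tmem140, Sec14l2 and Zfp385b, at 0.0700, 0.0719 and 0.0801 log2 units. For Tlr4 they were Trib2, Isyna1 and B4galt5, at 0.0336, 0.0368 and 0.0374 log2 units, and for Cd14 they were Bdh2, Rasgrp3 and Gsap, at 0.0647, 0.0709 and 0.0722 log2 units. For Myd88 the nearest were Pik3r2, Acaa1a and Pknox1, at 0.0122, 0.0165 and 0.0173 log2 units, of which Acaa1a overlaps Myd88 on the other strand. None of the other 9 genes was among the 3 nearest of any of these 4. These 3 places were filled from 9127 to 12367 genes compared, and genes below the minimum abundance could not appear. The absence therefore does not show whether the receptor and adaptor genes varied together.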

How the data were processed

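RNA-seq libraries of jawbone periosteal cells, 3 from spheroids and 3 from monolayers, were grouped by title. The submitters' processing notes name HISAT and GRCm38.p6. Not given in the sources used here are the counting tool, the annotation and whether strand was used. Expected counts were deposited by the authors as estimated read numbers, of which 28.9% to 30.6% per library were not whole, beside FPKM values, per the file headers. Expected counts were rounded and filtered with filterByExpr (minimum count 10), which left 13708 genes. These were fitted with edgeR 4.0.16 in R 4.3.3 (TMM factors 0.985 to 1.02, robust quasi-likelihood, two-sided, Benjamini-Hochberg adjustment over all tested genes, threshold 0.05). SEs of log2 fold changes come from the F statistic. CPM is the count scaled by TMM-adjusted library size. The median biological coefficient of variation was 3.23%.

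Replicate libraries were compared over genes with at least 40 reads, and no pair agreed within counting noise (mean chi-square ratio 1.90 to 2.91). For a group without any reads of a gene, a floor of 3 reads over its libraries was used, and this allows for counting error only. The test was also run on simulated data with known changes, and the outcome is not given here. Every simulated gene had the median spread between libraries, so genes noisier than that were not covered. Promoter windows are RefSeq's, 300 bases long, matched by symbol for 8 of the 10 genes (all but Tlr4 and Cd14), with 11 windows in all. Shared 50-base windows were counted in GENCODE M21 transcripts.

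The 10 genes, the lists and the rule for named genes were chosen with earlier results of these data known, and lists are described by counts and medians without a test. The rule named, from each other list, up to 3 called genes with the largest rise and up to 3 with the largest fall, any gene of a list with 6 or fewer, and the 3 nearest patterns of Tlr2, Tlr3, Tlr4, Cd14 and Myd88, of which those of Tlr3 are not reported here. Alternatives were 3 other scalings, no low-count filter, a replicate block, leaving out each library, DESeq2 1.42.0, limma-voom and limma 3.58.1 on log2 FPKM with pseudocounts of 1 and 0.1. Summing Tlr1 and Tlr6 was added after seeing the data.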

Additional observations from a re-analysis of the deposited data

How the results depend on the processing

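No direction of the 10 genes reversed under the 15 alternatives, and the calls of 7 of them (Tlr1, Tlr2, Tlr4, Tlr5, Cd14, Myd88 and Ticam1) held in each, while Irak3 was called in none. Tlr3 lost its call without monolayer replicate 3 (log2 fold change -0.18). Tlr6 gained one without spheroid replicate 3 (-0.44). The summed counts of Tlr1 and Tlr6 were called lower (-0.52), a result for the pair and not for Tlr6 by itself. Tlr1 ranged from -2.74 to -1.12 when 1 library was left out and was -0.30 with limma on log2(FPKM + 1), where Tlr5 was -1.23. Genes of the TRIF and IRF3 list called lower, 1 in the report, numbered 2 with no filter, 2 with DESeq2, 0 with limma-voom, 0 with the replicate block, and 0 to 2 when 1 library was left out. Those called higher, 1 in the report, numbered 1 to 2 when 1 library was left out. The 5 receptor and adaptor genes called with a change of at least 2-fold became 3 with limma on log2(FPKM + 1), without Tlr4 and Tlr1, and 4 to 5 when 1 library was left out. The cause was not tested. No other count recomputed, over all genes, the 10 genes, the 8 lists or the macrophage and osteoclast markers, moved by over 1.5 times. Scalings moved the median log2 fold change of all genes by no more than 0.03.

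Libraries of the 2 formats that share a replicate number deviated together only weakly, with correlations of -0.05, 0.07 and 0.06, so the number was not taken as a pairing. With it as a block, Tlr1 was -1.61, Tlr3 -0.25 and Tlr6 -0.28, and no call of the 10 genes changed.

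Low read numbers limit Tlr1, Tlr5, Tlr6, Tlr8 and Tlr13 most, and reads shared by Tlr1 and Tlr6 cannot be assigned from these tables.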

Other observations

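Several cytokine genes that answer Toll-like receptors in leukocytes were too low to test in either format. Tnf had 4, 8 and 4 reads in spheroids, against 3, 9 and 1 reads in monolayers, and the formats overlapped. Il1b had 1 read in each spheroid library and 0 in each monolayer library. Acod1, the itaconate-producing enzyme of activated macrophages, had 9, 4 and 4 reads in spheroids, against 1, 1 and 0 in monolayers. Csf3, the gene of the neutrophil growth factor G-CSF, had 9, 13 and 8 reads in spheroids and 0 in each monolayer library, at least 9.82-fold higher in spheroids if 3 reads over all monolayer libraries are taken as the floor. Neutrophil markers summed to 1.10 to 1.63 CPM in spheroids and 1.53 to 1.89 CPM in monolayers, and Ly6g, a defining neutrophil marker, had 0 reads in every spheroid library. Osteoclast markers were higher in spheroids for 5 of 5 tested, beside 37.1% of all tested genes, but 3 of these passed the count filter through spheroids alone. The osteoclast markers summed to 738 to 748 CPM in spheroids and 180 to 184 CPM in monolayers. Dendritic and lymphoid markers summed to 1.60 to 2.63 CPM in spheroids and 0.784 to 1.34 CPM in monolayers.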
